A study of Oryza sativa with 4 samples.

Results

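The genes LOC_Os05g27000, LOC_Os07g41860 and LOC_Os08g15340 are 3 rice loci listed as root hair markers, each taken as a locus of its own rather than as a run of adjacent marker genes. They are not isolated from other listed genes, since further listed root hair genes lie within 50 kb of each, among them LOC_Os05g26990, LOC_Os07g41840 and LOC_Os08g15420, the last of which is also listed for root cap. They were picked by their accessibility in the nuclei called root hair in the Normal libraries analysed here, so the levels in root hair marker nuclei given here are a description and were not tested. The loci were taken as the peaks that overlapped chr5:15714589-15719821, chr7:24836120-24838123 and chr8:8890025-8891146. Merged over the libraries, these peaks form 4 regions of the 55496 regions that were called in every library.

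Root hairs are tubular outgrowths of epidermal cells that enlarge the surface of the root for the uptake of water and nutrients. Genes used in a cell type usually lie in chromatin that is open there, since transcription factors displace nucleosomes from promoters and enhancers. In scATAC-seq, the transposase Tn5 cuts open DNA inside nuclei and each nucleus receives a barcode, so that cut sites in a region measure its accessibility in single nuclei. No function of the 3 genes is annotated in the files used here, and none is given.

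The nuclei came from 5 mm primary root tips of 3-day-old seedlings of the rice cultivar Nipponbare, grown at 28 °C, and the labels name no transgene or mutant. The 2 Normal libraries are from unstressed seedlings, and the 2 HS (heat stress) libraries are from seedlings exposed to 45 °C for 3 h, a treatment that the study's text gives and the labels do not. Whole root tips were pooled, so no library was sorted for root hairs. Nothing in the sources used here shows that the Normal libraries came from separate pools of seedlings, so p-values measure the spread between these libraries, and a difference between batches and the effect of heat cannot be told apart.

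The cells were the deepest barcodes of each library, between 10719 and 12708 per library, with between 328595993 and 341590315 cut sites in peaks. The median per cell was 23709 and 23839.5 cut sites in Normal and 27765 and 28143 in HS. Between 163 and 254 cell barcodes were shared by any pair of libraries. Nuclei were grouped without the 3 loci, by a root hair score. This score is the share of a nucleus' cut sites that lie in 16 other root hair marker loci (21 genes, 30 regions), divided by that share in the whole library. Hair-marker nuclei had a score of at least 2 and at least 3 of these loci with a cut site. A list of 21 root cap markers (40 regions) gave cap-marker nuclei in the same way, mixed nuclei passed both limits, and other nuclei neither. Hair-marker nuclei numbered 1739 and 1720 in Normal and 1410 and 1385 in HS, between 12.9% and 13.7% of the cells, and other nuclei between 79.1% and 80.3%. Between 3.86% and 4.51% of the cells had a root hair score from 1.8 to 2.2, so the group is a range of a score with nuclei at its border. Both lists were chosen by the study from these libraries, so the grouping and the 3 loci share a source.

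The 3 loci differ in where their open regions lie relative to the gene. At LOC_Os05g27000 (chr5:15717713-15719821, plus strand) there were 2 regions. The start region, chr5:15714589-15717880, runs from position -3124 bp to 167 bp relative to the gene start. The body region, chr5:15718400-15722931, covers 1422 bp of the gene and runs on past its end. The short gene LOC_Os07g41860 (chr7:24836503-24837060, plus strand, 558 bp) lies wholly inside its region of 2004 bp. The region of LOC_Os08g15340 (chr8:8888659-8889129, minus strand) does not overlap the gene and lies upstream, from -2017 bp to -896 bp relative to its start. How the exons of these genes are arranged was not analysed here, and no source used here names the genome build.

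The libraries did not call the same length of each region. At LOC_Os08g15340 the called length was 1122 bp and 1098 bp in Normal but 229 bp and 318 bp in HS. At LOC_Os07g41860 it was 2004 bp and 1991 bp in Normal and 1766 bp and 1799 bp in HS. The body region of LOC_Os05g27000 was called over 4517 bp and 4522 bp in Normal and 3972 bp and 3965 bp in HS, and its start region over 2126 bp and 2348 bp in Normal and 2219 bp and 3071 bp in HS. A deposited matrix counts no cut site outside the peaks of its own library, so between conditions fewer cut sites per base and a shorter called peak cannot be told apart in a raw count. Within a library the called length is the same for all groups of nuclei.

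LOC_Os05g27000 was the most accessible of the 3 loci in hair-marker nuclei. Its level, as cut sites per 10000 cut sites of the nuclei, was 2.12 and 2.11 in hair-marker nuclei of the Normal libraries and 0.228 and 0.236 in other nuclei. In HS the level was 1.94 and 1.93 in hair-marker nuclei and 0.212 and 0.224 in other nuclei. Hair-marker nuclei were thus above other nuclei in every library, by 9.10-fold ± 0.27 (SD, n = 2) in Normal and 8.88-fold ± 0.37 (SD, n = 2) in HS. Cap-marker nuclei lay between the groups, at 2.47 times the level of other nuclei in Normal.

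The start and body regions of LOC_Os05g27000 were alike in their ratio to other nuclei in hair-marker nuclei but not in cap-marker nuclei. The start region had 9.27 ± 0.95 times (SD, n = 2) the level of other nuclei in the Normal hair-marker nuclei, and the body region 8.84 and 9.16 times. In the Normal cap-marker nuclei the start region was at 1.17 times the level of other nuclei and the body region at 3.45 ± 0.10 times (SD, n = 2). The same order held in HS, with 1.45 for the start region and 3.35 for the body region. In mixed nuclei of the Normal libraries, the body region was at 1.34 and the start region at 0.543 per 10000. The level of the body region was also above that of the start region in Normal hair-marker nuclei (1.19 against 0.922) and other nuclei (0.132 against 0.0999). The body region was called over a greater length in every library. What set cap-marker nuclei apart was therefore the ratio to other nuclei and not the order of the levels. The body region runs past the gene, and other genes that lie in it were not analysed here.

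LOC_Os07g41860 was open at a lower level. In hair-marker nuclei its level was 0.279 and 0.272 per 10000 in Normal and 0.158 and 0.159 in HS. In other nuclei it was 0.0387 and 0.0366 in Normal and 0.0347 and 0.0350 in HS. Hair-marker nuclei were 7.32-fold ± 0.16 (SD, n = 2) above other nuclei in Normal and 4.55-fold ± 0.01 (SD, n = 2) in HS, so the ratios of the conditions did not overlap, and the difference came with a lower level in hair-marker nuclei and near equal levels in other nuclei. In cap-marker nuclei of the Normal libraries the locus was at 1.55 times the level of other nuclei.

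LOC_Os08g15340 was the weakest of the 3 loci. In hair-marker nuclei its level was 0.0836 and 0.0850 per 10000 in Normal and 0.0117 and 0.0177 in HS. In other nuclei it was 0.0163 and 0.0150 in Normal and 0.00328 and 0.00415 in HS. The ratio of hair-marker to other nuclei was 5.39 ± 0.38 (SD, n = 2) in Normal and 3.91 ± 0.51 (SD, n = 2) in HS, and both groups of nuclei were far lower in HS. Per kb of called length, hair-marker nuclei held 0.0745 and 0.0774 in Normal and 0.0510 and 0.0557 in HS, which did not overlap. Other nuclei held 0.0146 and 0.0137 in Normal and 0.0143 and 0.0130 in HS, which did.

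**Figure D1:**
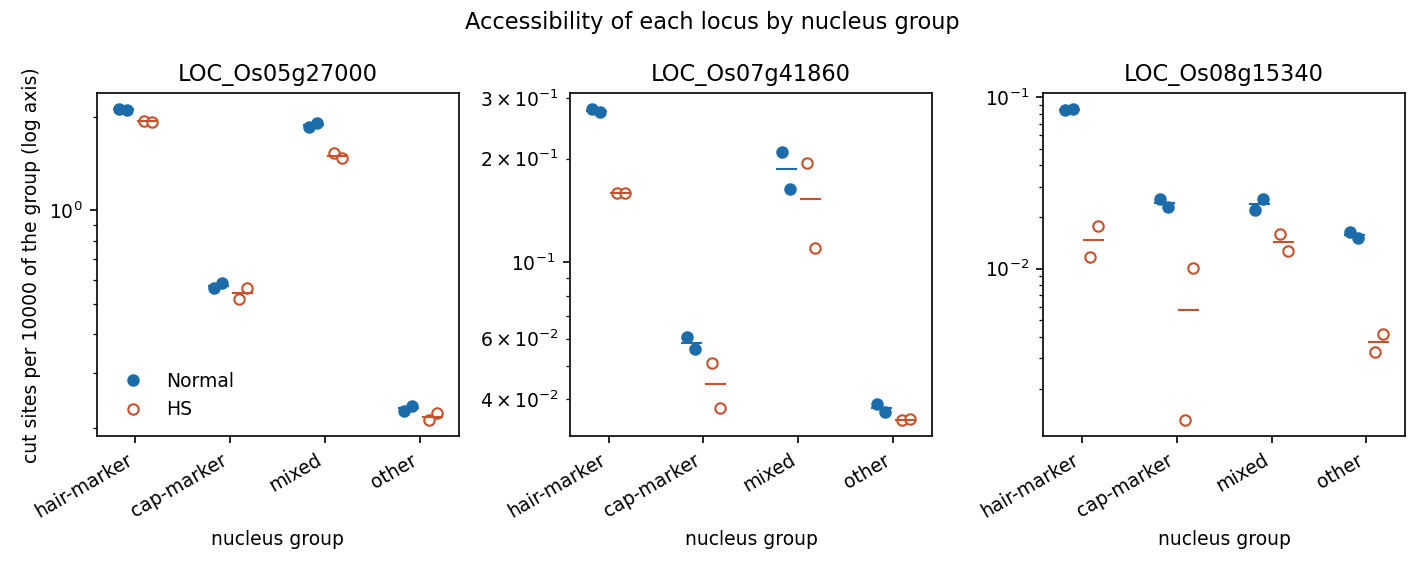
Cut sites per 10000 cut sites of the nuclei (log axis) at each of the 3 loci in hair-marker, cap-marker, mixed and other nuclei; each point is a library, filled for Normal and open for HS, and the short lines are means. Hair-marker nuclei stand above other nuclei at all 3 loci in all 4 libraries, and the HS points of LOC_Os08g15340 lie below the Normal points in every group.

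The levels can be set against the 16 root hair marker loci used for the grouping, whose ratio of hair-marker to other nuclei ranged from 1.07 (LOC_Os02g17870) to 8.97 (LOC_Os08g14210) in Normal with a median of 4.64. Those loci set the score themselves, whereas the 3 loci did not enter it. The Normal mean of LOC_Os05g27000, 9.10, was just above this range, but in Normal replicate 2 it was at 8.91 and LOC_Os08g14210 at 8.98. In HS, LOC_Os12g28070 was at 9.97 and LOC_Os05g27000 at 8.88. In Normal, LOC_Os07g41860 and LOC_Os08g15340 lay above its median. The 21 root cap loci had a median ratio of 1.18. Among all 55496 regions, 22 had a higher ratio than the start region and 24 a higher one than the body region of LOC_Os05g27000 in Normal. For LOC_Os07g41860 the number was 70 and for LOC_Os08g15340 it was 266. In HS the same counts were 9 for the start region, 35 for the body region, 402 for LOC_Os07g41860 and 624 for LOC_Os08g15340. In all Normal nuclei together the loci were not among the strongest peaks. The level of the start region was above that of 77.3% of the regions, the body region above 84.2%, LOC_Os07g41860 above 48.1% and LOC_Os08g15340 above 21.8%.

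The cut sites at LOC_Os05g27000 came in large part from hair-marker nuclei, which held between 12.2% and 12.7% of all cut sites. The share was 52.7% and 51.9% in Normal and 53.4% and 50.7% in HS. For LOC_Os07g41860 it was 48.4% and 49.9% in Normal and 37.8% in each HS library. For LOC_Os08g15340 it was 41.6% and 44.2% in Normal and 33.6% and 35.0% in HS. The remainder lay mostly in other nuclei, so none of the 3 loci was confined to the hair-marker group. Barcodes that were not cells carried 0.543 and 0.568 per 10000 at LOC_Os05g27000 in Normal, above the 0.228 and 0.236 of other nuclei. At LOC_Os07g41860 they carried 0.0703 and 0.0807, and at LOC_Os08g15340 they carried 0.0286 and 0.0341. These values were nearer the levels over all Normal cells, which were 0.506 and 0.516 at LOC_Os05g27000. Those levels were 0.0726 and 0.0694 at LOC_Os07g41860 and 0.0254 and 0.0245 at LOC_Os08g15340. How much free DNA adds to the level in other nuclei was not tested.

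In single nuclei, a cut site was found at LOC_Os05g27000 in 83.0% ± 0.6 (SD, n = 2) of hair-marker nuclei and 20.5% ± 0.9 (SD, n = 2) of other nuclei in Normal. For LOC_Os07g41860 the shares were 26.3% ± 1.0 (SD, n = 2) and 4.86%, and for LOC_Os08g15340 they were 10.2% and 2.30%. The median depth of hair-marker nuclei was between 22060 and 26682 cut sites and that of other nuclei between 23874 and 28670, so the hair-marker nuclei were not the deeper group. When each nucleus was thinned to 10000 cut sites, the Normal shares in hair-marker against other nuclei were 78.0% ± 1.3 and 13.8% ± 0.7 (SD, n = 2) for LOC_Os05g27000. They were 19.4% ± 0.1 (SD, n = 2) and 2.72% for LOC_Os07g41860, and 6.66% and 1.18% for LOC_Os08g15340. In HS the thinned shares were 75.3% and 12.4% for LOC_Os05g27000, 11.8% and 2.70% for LOC_Os07g41860, and 1.15% and 0.271% for LOC_Os08g15340. The last hair-marker share joins 0.718% (9 nuclei) in HS replicate 1 and 1.58% (20 nuclei) in HS replicate 2. In Normal replicate 1, thinning left out 187 hair-marker and 1222 other nuclei that were shallower. Cut sites were drawn singly, whereas only 3.72% to 3.92% of the deposited counts were odd, so most sites come in pairs. The thinned shares are therefore higher than if pairs had been drawn. At LOC_Os08g15340, open hair-marker nuclei held on average 2.04 and 2.09 cut sites in Normal and 1.33 and 1.60 in HS. How far this shifts its thinned shares between conditions was not tested. A hair-marker nucleus with no cut site at a locus may still be open there, since each nucleus carries few copies to cut.

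The signal at LOC_Os05g27000 was also stronger per open nucleus. Hair-marker nuclei with a cut site there held on average 6.33 and 6.34 cut sites in Normal and 6.74 and 6.75 in HS. Other nuclei with a cut site held 3.14 and 3.06 in Normal and 3.31 and 3.50 in HS. The hair-marker values were above the other values in all 4 libraries.

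All 3 loci were more accessible where the root hair score from the other loci was higher. From nuclei with a score under 0.5 to those of at least 4, LOC_Os05g27000 went from 0.117 to 2.66 per 10000 in Normal and from 0.0940 to 2.69 in HS. LOC_Os07g41860 went from 0.0250 to 0.393 in Normal and from 0.0226 to 0.186 in HS. LOC_Os08g15340 went from 0.0111 to 0.108 in Normal and from 0.00205 to 0.0160 in HS. The last HS value rests on 5 cut sites in each library. From a score of 2 upwards the HS means of this locus were 0.0161, 0.00889, 0.0187 and 0.0160, without a steady rise. The mean level of LOC_Os05g27000 was higher in each bin than in the one before in both conditions, whereas that of LOC_Os08g15340 was 0.0769 in Normal nuclei of a score from 2 to 2.5 and 0.0685 in those from 2.5 to 3. At LOC_Os07g41860 the conditions were close in nuclei of low score and apart in those of high score, with 0.321 in Normal and 0.184 in HS for scores from 3 to 4.

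**Figure D2:**
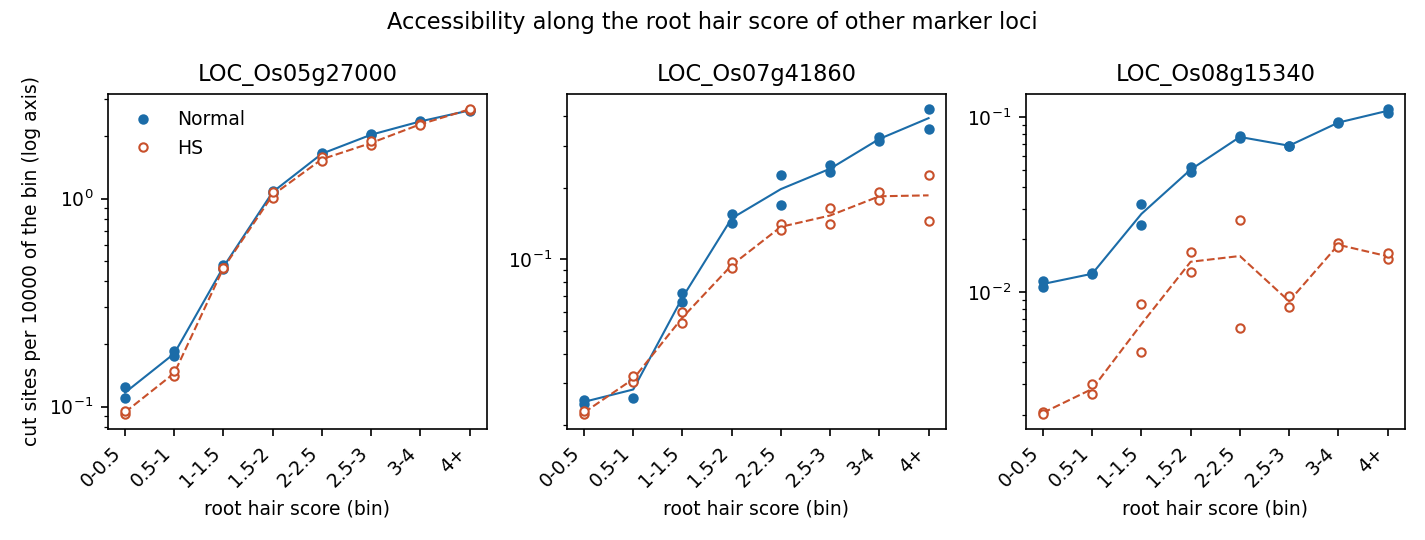
Cut sites per 10000 cut sites of the bin (log axis) at each locus in 8 bins of the root hair score of other marker loci; points are libraries, filled for Normal and open for HS, and lines join the condition means. The lines of LOC_Os05g27000 lie close together, those of LOC_Os07g41860 separate at high scores (0.321 in Normal and 0.184 in HS in the bin from 3 to 4), and those of LOC_Os08g15340 are apart at every score.

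Few nuclei had all 3 loci open. In Normal, 13.4% of hair-marker nuclei had none of the 3 open, 56.7% had 1, 26.9% had 2 and 2.98% (103 nuclei) had 3. Of other nuclei, 75.3% had none, 22.0% had 1, 2.56% had 2 and 0.189% (38 nuclei) had 3. In HS, 66.2% of hair-marker nuclei had 1 of the loci open, 19.3% had 2 and 0.467% (13 nuclei) had 3. Read the other way, the share of nuclei that were hair-marker nuclei was higher with more loci open in both Normal libraries. In Normal replicate 1 it was 2.85% with none, 27.9% with 1, 59.5% with 2 and 64.9% with 3, and in Normal replicate 2 it was 2.75%, 27.6%, 58.5% and 77.5%. The exact (Clopper-Pearson) 95% interval, which covers counting error only, was 52.9% to 75.6% for the 74 nuclei with all 3 open in Normal replicate 1 and 66.0% to 86.5% for the 71 in Normal replicate 2. In HS replicate 1 it was 2.81% with none, 30.9% with 1, 55.5% with 2 and 37.5% with 3 (8 nuclei, interval 8.52% to 75.5%), and in HS replicate 2 it was 2.70%, 29.9%, 53.5% and 55.6% (18 nuclei, interval 30.8% to 78.5%). Nuclei with more loci open were also deeper in Normal, with a median of 21491 cut sites for none and 37702 for 3 in Normal replicate 1. In HS the medians for 3 open, 30424.5 and 35786, were below the 39086 and 38489 for 2.

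Because depth raises the chance that any locus is open, co-opening was measured as the number of nuclei with both loci open over the number given by independence within 10 depth bins of each library. Among hair-marker nuclei this ratio was close to 1 in Normal. For LOC_Os05g27000 with LOC_Os07g41860 it was 1.02 and 0.989, with 420 and 389 nuclei observed. For LOC_Os05g27000 with LOC_Os08g15340 it was 1.01 and 1.06, and for LOC_Os07g41860 with LOC_Os08g15340 it was 0.955 and 1.08. LOC_Os05g27000 was open in 83.0% of these nuclei, so a ratio with it has little room above 1 there and cannot be set directly against the ratio in other nuclei. In HS hair-marker nuclei the ratio was 1.02 and 1.00 for LOC_Os05g27000 with LOC_Os07g41860 and 0.940 and 1.06 for LOC_Os05g27000 with LOC_Os08g15340. For LOC_Os07g41860 with LOC_Os08g15340 it was 0.396 (3 nuclei) and 1.198 (11 nuclei), too few to read.

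Among other nuclei the loci did open together more often than independence gives. LOC_Os05g27000 and LOC_Os07g41860 were both open in 202 and 200 other nuclei of the Normal libraries, 1.54 times the expected number in each. For LOC_Os05g27000 with LOC_Os08g15340 the ratio was 1.52 and 1.34, and for LOC_Os07g41860 with LOC_Os08g15340 it was 1.87 (31 nuclei) and 1.54 (21 nuclei). All 3 loci were open in 23 and 15 other nuclei, 4.24 and 3.30 times the expected number. In HS other nuclei the ratio was 1.51 and 1.40 for LOC_Os05g27000 with LOC_Os07g41860 and 1.47 and 1.71 for LOC_Os05g27000 with LOC_Os08g15340. For LOC_Os07g41860 with LOC_Os08g15340 it was 1.11 (5 nuclei) and 1.38 (8 nuclei), below the Normal values but from few nuclei. Over all nuclei of a Normal library the ratios for the pairs were between 1.74 and 2.01. Nuclei were then also binned by the root hair score into 3 bins of equal size, a setting added after seeing the data. The mean ratio in other nuclei was then 1.29 for LOC_Os05g27000 with LOC_Os07g41860 and 1.24 for LOC_Os05g27000 with LOC_Os08g15340. It was 1.48 for LOC_Os07g41860 with LOC_Os08g15340. Part of the excess therefore went with the score. Nuclei within 1 of these wide bins still differ in score, so whether the rest goes beyond the score cannot be told. How far doublets add to the excess was not tested.

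The 2 regions of LOC_Os05g27000 were set beside these ratios, since they belong to one locus. They lie close together, as the start region ends at chr5:15717880 and the body region begins at chr5:15718400. The 2 cut sites of a pair can therefore fall 1 in each region, which they cannot for loci on different chromosomes. The start and body regions were open together 1.02 times the expected number in Normal hair-marker nuclei and 1.84 ± 0.12 times (SD, n = 2) in other nuclei. Over all Normal nuclei the ratio was 2.18. In the means over the Normal libraries, the pairs of loci on different chromosomes were below the 2 parts of 1 locus in other nuclei. The open shares there also differed, at 10.6% and 13.4% for the 2 regions and 20.5%, 4.86% and 2.30% for the loci. How far shared pairs of cut sites and unlike open shares set this order was not tested.

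**Figure D3:**
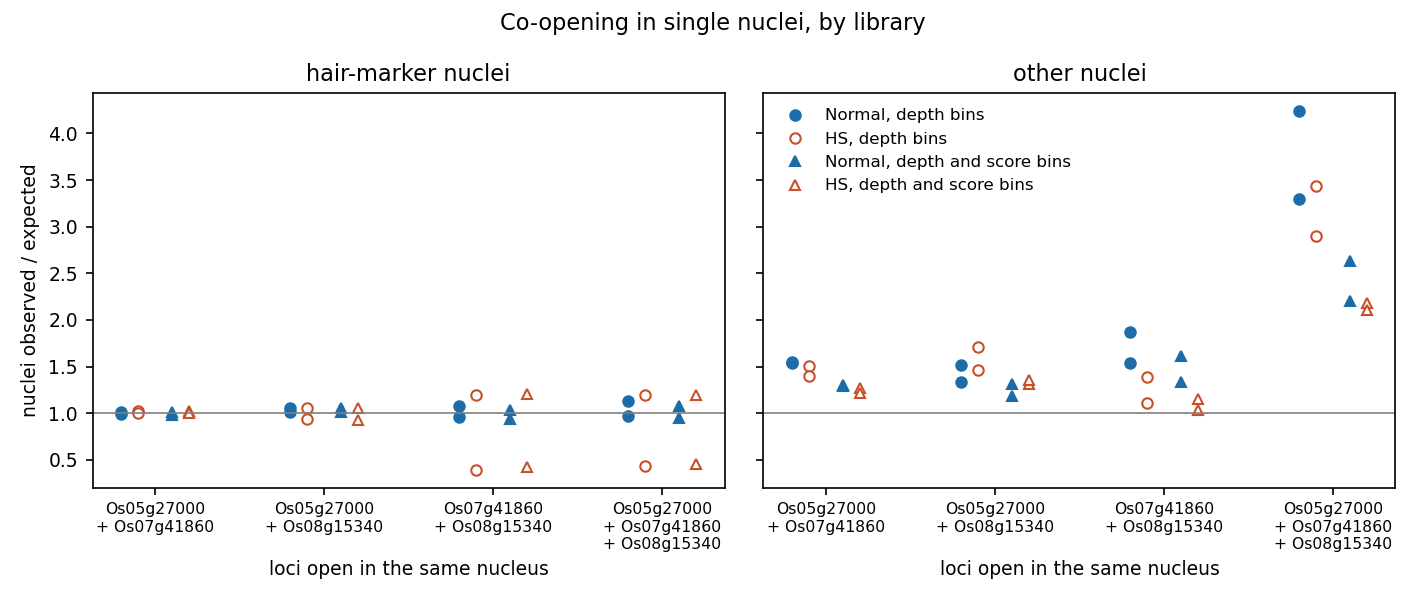
Nuclei with the named loci open together, observed over expected from independence within depth bins (circles) or within depth and root hair score bins (triangles), for hair-marker and other nuclei; each point is a library, filled for Normal and open for HS. In hair-marker nuclei of Normal the pairs lie between 0.955 and 1.08, and in other nuclei they lie between 1.34 and 1.87 within depth bins.

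The regions whose open state went most closely with each locus were listed by the correlation of open state over 25312 Normal nuclei within depth bins. This is a description, since nuclei of a library share its depth and its mix of cell types. The median over all regions was 0.00 for each locus. For LOC_Os05g27000 the top 5 were 3 regions of a run of listed root hair genes on chromosome 10 (0.40, 0.39 and 0.37), chr8:8880865-8885664 (0.37) and chr8:7980647-7983424 (0.34). For LOC_Os07g41860 they were the same 3 regions on chromosome 10 (0.23, 0.21 and 0.21), chr8:8880865-8885664 (0.21) and chr7:8745450-8748657 (0.21), which overlaps LOC_Os07g15330 and LOC_Os07g15320. For LOC_Os08g15340 they were the 3 regions on chromosome 10 (0.12, 0.11 and 0.11), chr8:7980647-7983424 (0.11) and the start region of LOC_Os05g27000 (0.11). The coefficients were lower for the loci of lower level, so they do not rank the loci by how closely they follow the root hair markers. All 100 regions most like each locus were over 2-fold higher in hair-marker than in other Normal nuclei, where 6.27% of all regions were. The regions were picked over these same nuclei by their likeness to loci high in hair-marker nuclei, so the choice largely fixed this outcome.

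The chromatin around the loci differed. Within 50 kb, 2 of 13 regions around the start region of LOC_Os05g27000 were over 2-fold higher in hair-marker than in other Normal nuclei, and 1 of these was its own body region. Around LOC_Os07g41860 it was 10 of 17 regions and around LOC_Os08g15340 6 of 13, where 6.27% of all regions were. LOC_Os05g27000 was thus flanked by few regions of this kind and the other 2 loci by several.

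The region of LOC_Os08g15340 was not the most accessible one near its gene. The region chr8:8880865-8885664, centred at -7.32 kb on the other side of the gene, held 1.38 ± 0.02 cut sites per 10000 (SD, n = 2) in Normal hair-marker nuclei and 0.125 in other nuclei. Its ratio of 11.1 ± 0.7 (SD, n = 2) was above the 5.39 of the upstream region of LOC_Os08g15340 and above all 3 loci, and no listed marker gene overlapped it with its body or its 2000 bp upstream. Which gene this region belongs to was not analysed here. The region chr8:8924792-8928706, upstream of LOC_Os08g15420, had a ratio of 6.51 and chr8:8896417-8897309 one of 5.13. Near LOC_Os07g41860, chr7:24826480-24827878 at -9.94 kb had a ratio of 6.56 ± 0.42 (SD, n = 2) and chr7:24829103-24834318 at -5.41 kb one of 4.73, the latter with a level of 1.51 in hair-marker nuclei. The strongest neighbour of LOC_Os05g27000 outside its own regions, chr5:15706626-15709968 at the start of LOC_Os05g26990, had a ratio of 2.40. The region chr7:24820685-24821488, at the start of LOC_Os07g41840, had one of 5.04.

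**Figure D4:**
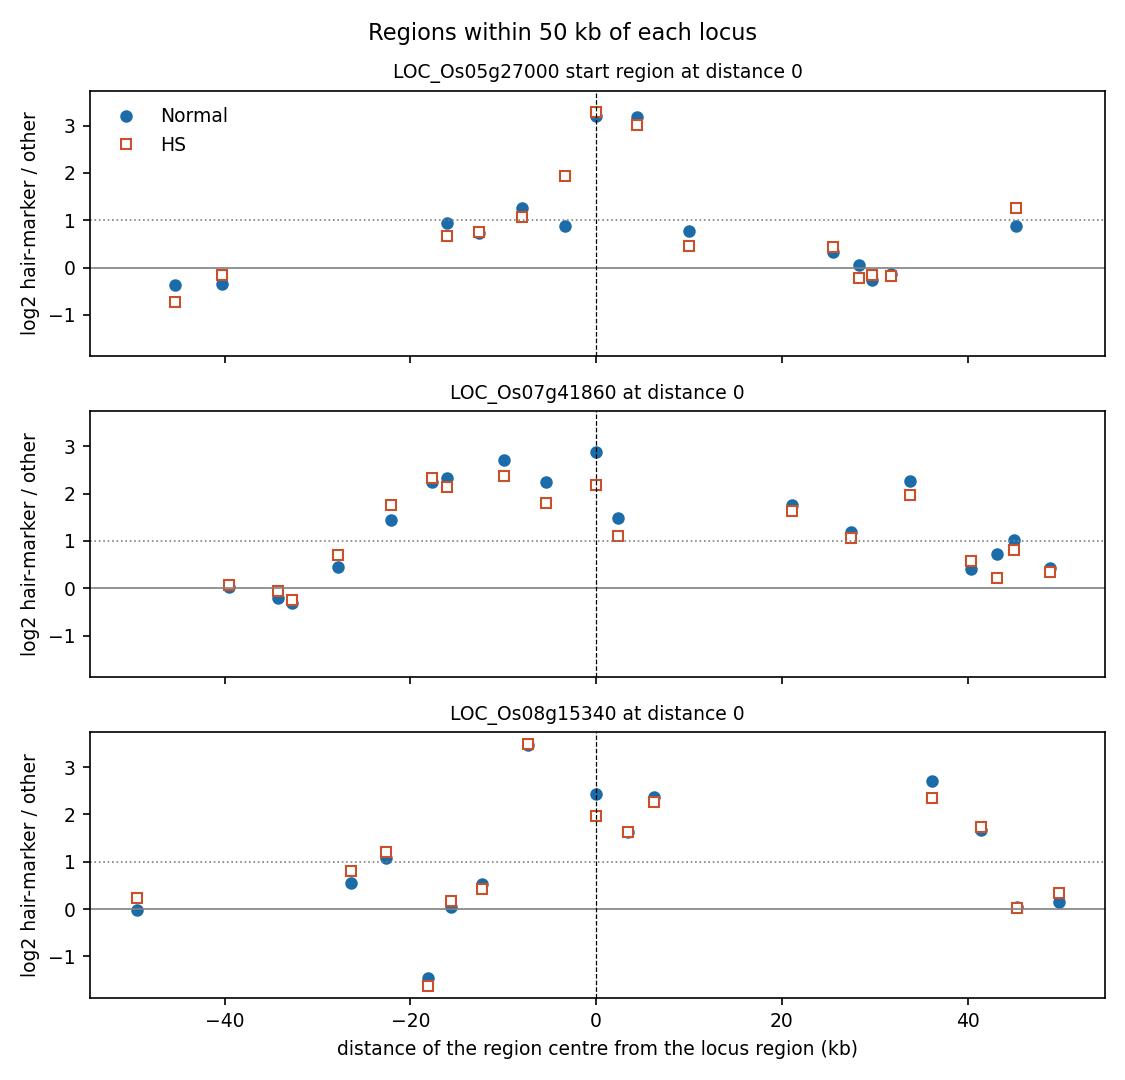
Log2 of accessibility in hair-marker over other nuclei (vertical axis) for each region within 50 kb of the start region of LOC_Os05g27000, of LOC_Os07g41860 and of LOC_Os08g15340, against the distance of its centre in kb; circles are Normal, squares are HS, the dotted line is 2-fold and the dashed line marks the locus. In the panel of LOC_Os08g15340 the point at -7.32 kb stands above the locus itself, with a log2 of 3.47 in Normal and 3.48 in HS.

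Heat was not a criterion in choosing the loci, and HS against Normal was tested on counts summed per library with edgeR's quasi-likelihood test. The loci were, however, chosen for their accessibility in root hair nuclei of the Normal libraries, whose counts enter this test. The choice itself favours high Normal values in hair-marker nuclei and so lower values in HS, in the effect and in its difference from other nuclei, and the size of this was not tested. The median root hair score of hair-marker nuclei was 2.99 and 3.00 in Normal and 2.84 and 2.79 in HS. The loci were more accessible at higher scores, and how far this enters the heat effect or its difference from other nuclei was not tested. P-values were adjusted by Benjamini-Hochberg over all regions tested, and a region was called if its adjusted p did not exceed 0.01 and its change reached 2-fold. In hair-marker nuclei, 1 of the 4 regions was called, that of LOC_Os08g15340, where 6.63% of 55358 regions were called and 3.7% were called lower. In other nuclei and in all nuclei together the same region was the only one of the 4 called, where 4.91% and 4.56% of regions were called and 2.89% and 2.63% were called lower. The scaling centres the log2 fold changes of all regions near 0, so each value is relative to the other regions.

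At LOC_Os08g15340, the normalised count in hair-marker nuclei (CPM, scaled to a fixed total per library) was 8.30 and 8.42 in Normal and 1.18 and 1.79 in HS, from 359, 367, 48 and 72 cut sites. In other nuclei it was 1.63 and 1.497 in Normal and 0.329 and 0.415 in HS. The conditions did not overlap in either group. The log2 fold change was -2.49 (SE 0.17, 95% interval -2.86 to -2.14, edgeR adjusted p = 1.24e-11) in hair-marker nuclei and -2.07 (SE 0.26, adjusted p = 0.000530) in other nuclei. The called peak was also shorter in HS. With counts per called base, the log2 fold change was -0.48 (SE 0.16, adjusted p = 0.0410) in hair-marker nuclei and -0.05 (adjusted p = 0.711) in other nuclei, so neither value was called. These values compare the 229 bp and 318 bp that HS called with the longer Normal peaks. A peak is called where signal is high, so they do not show whether accessibility per base changed over the whole region. The 2 effects of heat at this locus did not differ past the limit, with a difference in log2 of -0.43 (95% interval -0.95 to 0.09, adjusted p = 0.267).

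LOC_Os07g41860 was lower after heat in hair-marker nuclei without reaching 2-fold. The CPM was 27.7 and 27.0 in Normal and 16.0 in each HS library, and in other nuclei it was 3.87 and 3.65 in Normal and 3.48 and 3.50 in HS. In hair-marker nuclei the conditions were well apart, and in other nuclei they were close. The log2 fold change was -0.77 (SE 0.072, 95% interval -0.92 to -0.62, edgeR adjusted p = 2.40e-09) in hair-marker nuclei, or 1.71-fold lower, and -0.11 (SE 0.066, adjusted p = 0.193) in other nuclei. By the adjusted p alone, without the fold limit, 15.9% of regions were lower in hair-marker nuclei, and 4592 regions had a lower log2 fold change. With counts per called base it was -0.61 (adjusted p = 6.20e-05) in hair-marker nuclei and 0.06 (adjusted p = 0.421) in other nuclei.

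The heat effect at LOC_Os07g41860 differed between the groups of nuclei. Tested as an interaction with the library as a block, the log2 difference of the effects was -0.66 (SE 0.11, 95% interval -0.89 to -0.44, edgeR adjusted p = 1.03e-06). This passed the adjusted p limit but not the 2-fold limit, and 6.69% of 55494 regions were lower by the adjusted p alone in this test, 7.26% were higher, and 0.654% passed both limits. The called length of a library is common to both groups of nuclei. Whether their profiles along the peak differ, in the part that HS did not call, was not tested. The regions of the root hair list set the score, so their summed share in hair-marker nuclei is bounded by the score limit, though single regions can move. They are thus no free reference, and their values are a description. Of these 30 regions, 9 were lower and 4 higher by the adjusted p alone in this test, with log2 differences from -0.62 to 0.69. Of all regions, 1527 had a lower value than LOC_Os07g41860.

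The start region of LOC_Os05g27000 changed little after heat. Its CPM in hair-marker nuclei was 92.7 and 90.2 in Normal and 96.8 and 97.1 in HS, a log2 fold change of 0.08 (SE 0.033, edgeR adjusted p = 0.0398), and in other nuclei it was -0.02 (adjusted p = 0.815). The body region had a CPM of 117 and 118 in Normal and 98.8 and 97.3 in HS in hair-marker nuclei, a log2 fold change of -0.27 (SE 0.031, adjusted p = 1.28e-07), far from 2-fold. In other nuclei it was -0.14 (adjusted p = 0.0135). Per called base the body region's value in hair-marker nuclei was -0.08 (adjusted p = 0.139), and how far the lower count and the shorter called peak share a source cannot be told apart. Neither region passed the limit in the test of the difference between the groups of nuclei, with 0.10 (adjusted p = 0.152) for the start region and -0.13 (adjusted p = 0.0310) for the body region. For the start region that test passed the adjusted p limit without Normal replicate 1 (0.20, adjusted p = 0.00661) and gave -0.00 (adjusted p = 0.992) without Normal replicate 2.

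**Figure D5:**
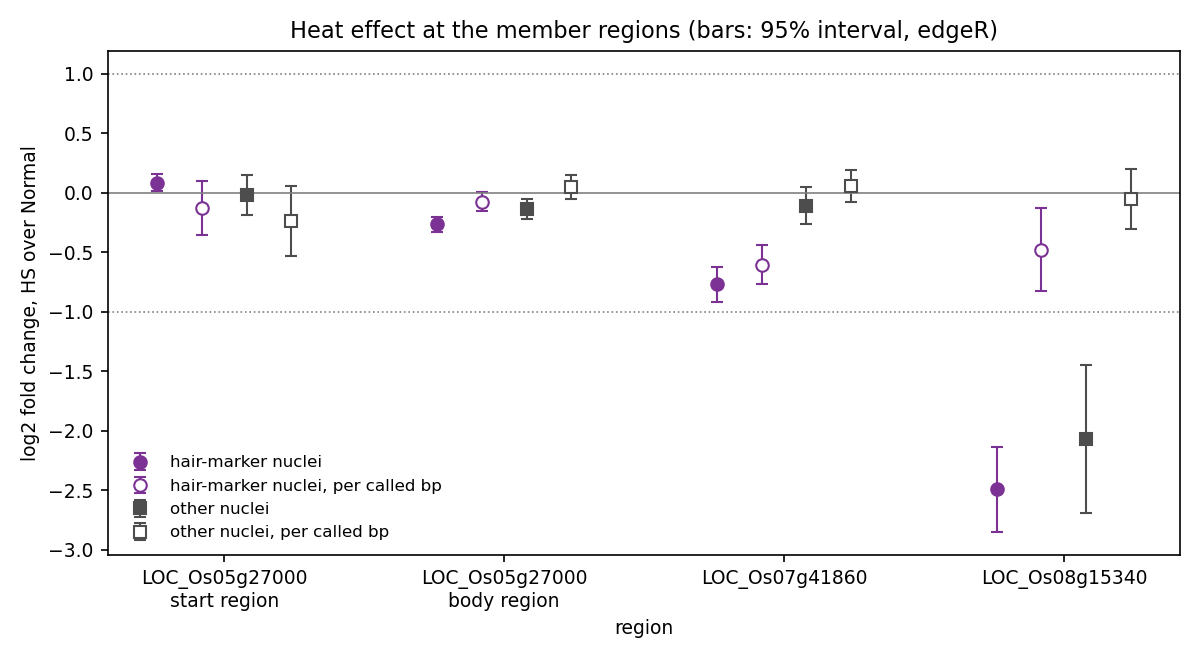
Log2 fold change of HS over Normal at the 4 regions, with 95% intervals as bars, for hair-marker and other nuclei; filled points use counts as deposited and open points counts per called base. The intervals of hair-marker and other nuclei are apart at LOC_Os07g41860 (-0.77 and -0.11), and the points of LOC_Os08g15340 move from -2.49 to -0.48 and from -2.07 to -0.05 when counts are divided by the called length.

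The marker lists defined the groups of nuclei within each library, so their level in hair-marker nuclei is in large part set by the grouping and is given as a description. Of the 30 root hair regions, 1 was called higher and 1 lower, where 2.93% of all regions were called higher and 3.7% lower. Their median log2 fold change was 0.14, with a range from -1.15 to 1.60. Of the 40 root cap regions, 4 were called lower, where 3.7% of all regions were, with a median of -0.04. Neighbours of the loci were also examined in hair-marker nuclei. Around LOC_Os07g41860, 5 of 17 regions passed the adjusted p limit and none of these reached 2-fold, where 15.9% of all regions were lower and 18% higher by that limit. Among the 5 was chr7:24826480-24827878 with a log2 fold change of -0.88 (adjusted p = 8.83e-10), whereas chr7:24829103-24834318 was at -0.24. The mean called length of the former was 1238 bp in Normal and 742.5 bp in HS. That of the latter was 5196 bp and 4463 bp. Around LOC_Os08g15340, 5 of 13 regions passed the adjusted p limit and none of these reached 2-fold. The strong region chr8:8880865-8885664 was at 0.18 (adjusted p = 1.55e-05), opposite in sign to the region upstream of LOC_Os08g15340. The mean called length of this strong region was 4179.5 bp in Normal and 4776 bp in HS. At these neighbours too, a change in cut sites per base and one in called length cannot be told apart. Around LOC_Os05g27000, 2 of 12 passed both limits, where 6.63% of all regions did. The region chr5:15712362-15713384, upstream of the start region, rose by 2.49 on the log2 scale (adjusted p = 8.69e-12), with a mean called length of 394.5 bp in Normal and 889 bp in HS, and chr5:15670581-15671276 fell by 2.14, with 685 bp and 386 bp. The rise at chr5:15712362-15713384 was larger in hair-marker than in other nuclei, by 1.07 on the log2 scale (adjusted p = 0.000296).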

How the data were processed

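The 4 libraries were processed by the authors with Cell Ranger ATAC 1.2.0, and the deposited values are raw counts of Tn5 cut sites per peak and barcode, for all barcodes, with peaks called separately in each library. No source used here names the genome build or how the peak calling was set. Positions and marker genes came from the study's marker table, and the number of cells per library from its table of libraries, with the barcodes of most cut sites taken as cells. Doublets were not called, and as an alternative the deepest 10% of nuclei were left out. The members and lists were chosen with earlier results of these data known.

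Peaks that shared at least 1 bp were merged, and regions called in all 4 libraries were used. Counts were summed per library and group of nuclei and tested with edgeR 4.0.16 (TMM, filterByExpr, quasi-likelihood test) in R 4.3.3, with limits of 0.01 for the Benjamini-Hochberg adjusted p and 2-fold for the change. DESeq2 1.42.0 was an alternative. The difference between groups of nuclei was an interaction with library as block. SDs are between the libraries of a condition. The regions named as most like each locus were the 5 of highest correlation of open state, leaving out those within 100 kb, with a gene name where a gene of the marker table or its 2000 bp upstream overlapped the region. Of the marker lists, the loci of highest and lowest ratio were named, and neighbours were named after their values were seen. The scripts for the tests were tested on simulated data. Python 3.11.15, numpy 2.4.6, pandas 2.3.3, scipy 1.17.1 and matplotlib 3.10.9 were used for the other steps.

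Other settings covered normalization, the filter on low counts, the score limit, the root hair list without the chromosome 10 genes, the choice of cells, the called length, depth bins and thinning. They also covered the replicate number as a block, the difference without the library as a block and each library left out in turn. Replicate numbers came from the labels, which do not say that they mark a shared batch. Promoter, protein and motif sequences were not used here.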

Additional observations from a re-analysis of the deposited data

Results flagged for a closer look

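The heat effect at LOC_Os07g41860 differed between hair-marker and other nuclei by a test of the difference itself. The log2 difference of the effects was -0.66 (SE 0.11, edgeR adjusted p = 1.03e-06). It was between -0.69 and -0.64 with any 1 library left out. The difference is below 2-fold. LOC_Os07g41860 was chosen for its accessibility in root hair nuclei of the Normal libraries, which enter this test and favour this direction, and the size of that was not tested. Hair-marker nuclei also had a lower median root hair score in HS (2.84 and 2.79) than in Normal (2.99 and 3.00). How far this enters the difference was not tested.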

How the results depend on the processing

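The main limit is the called length, since counts exist only inside each library's peaks and the length called depends on the signal. With 2 libraries per condition a batch and heat cannot be told apart. With counts per called base, the regions past both limits numbered 243 in all nuclei, 837 in hair-marker nuclei and 269 in other nuclei, in place of 2531, 3669 and 2724. LOC_Os08g15340 then had log2 values of -0.22 in all, -0.48 in hair-marker and -0.051 in other nuclei, and the body region of LOC_Os05g27000 -0.084 in all and -0.078 in hair-marker nuclei, none past the limits. In other nuclei the body region passed the adjusted p limit with DESeq2 (-0.14), without the deepest 10% of nuclei (-0.20), at a score limit of 3 (-0.19) and without the chromosome 10 genes (-0.18). The start region passed it in hair-marker nuclei at a score limit of 3 (0.17), and in the difference between groups at a score limit of 1.5 (0.20). Of the member values in the heat tests under other settings, 137 kept their direction and side of the adjusted p limit, 6 newly passed it and 5 no longer did. With 1 library left out, 63 kept both and 1 newly passed.

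The replicate number as a block gave 2400 regions past both limits in all, 3746 in hair-marker and 2587 in other nuclei. The test of the difference had the library as a block, and without that block 185 regions passed both limits in place of 363. The replicate number as a block changed no call of a member, with -0.77 for LOC_Os07g41860 and -2.502 for LOC_Os08g15340 in hair-marker nuclei. The deviations of same-numbered libraries from their condition means had correlations of 0.02, -0.01 and 0.02 in all, hair-marker and other nuclei. With 2 libraries per condition and counting error in each region, these values cannot show whether the numbers mark a shared batch.

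With 1 library left out, the regions past both limits ranged from 2199 to 2943 in all, from 3158 to 3797 in hair-marker and from 2344 to 2984 in other nuclei, and from 329 to 432 for the difference. The difference at the start region ranged from -0.0019 to 0.20 and passed the limit without Normal replicate 1.

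The ratio of hair-marker to other nuclei at LOC_Os05g27000 was 10.4 in Normal and 10.7 in HS at a score limit of 1.5, 6.44 and 6.54 at 3, 8.12 and 8.23 without the chromosome 10 genes, and 10.1 and 10.4 without the deepest 10% of nuclei. For LOC_Os07g41860 it was 7.91 and 4.59, 6.45 and 4.16, 6.73 and 4.30, and 8.04 and 4.81 in the same order, and 4.61 in HS with cells above the valley of the depth distribution. For LOC_Os08g15340 it was 4.63 in Normal at a score limit of 3, and in HS 5.07 at 1.5 and 4.55 without the deepest nuclei. Co-opening of LOC_Os05g27000 with LOC_Os07g41860 in Normal hair-marker nuclei was 1.03 at a score limit of 1.5. In other nuclei it was 1.28 at 1.5, 1.76 at 3, 1.66 without the chromosome 10 genes, 1.55 with cells above the valley, 1.57 without the deepest nuclei, 1.51 in 20 depth bins and 1.29 in score bins. For LOC_Os05g27000 with LOC_Os08g15340 it was 1.27 at 1.5, 1.66 at 3, 1.66 without the deepest nuclei and 1.24 in score bins. For LOC_Os07g41860 with LOC_Os08g15340 it was 1.95 without the deepest nuclei, and for all 3 loci 5.64 without them and 2.42 in score bins. Thinned to 5000 cut sites, again drawn singly, Normal hair-marker and other nuclei were open in 56.8% and 8.43% at LOC_Os05g27000. The shares were 10.3% and 1.60% at LOC_Os07g41860, and 3.53% and 0.738% at LOC_Os08g15340. The cause of these shifts was not tested.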
